A study of Mus musculus with 13 samples.

Results

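The 5 microRNAs (miRNAs) mmu-miR-3473, mmu-miR-3473b, mmu-miR-344i, mmu-miR-690 and mmu-miR-3968, named below without the mouse prefix mmu, were followed across normal mouse thymocytes and Notch1-driven T-cell acute lymphoblastic leukaemia (T-ALL). They were 5 of the 1122 mouse miRNAs on the array and 5 of the 229 that were tested. They were chosen from the measured values: on none of them did the 3 arrays of late-stage T-ALL overlap the 3 arrays of early-stage T-ALL, in the signal used throughout. The stage difference is therefore a description here, with no test. Separation of this kind was found for 26 of the 229 tested miRNAs (11.4%), with late-stage higher for 20 (8.73%) and lower for 6 (2.62%), and the 5 were picked from among these 26 with earlier results of the data known.

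All cells came from C57BL/6 mice, and total RNA was hybridised to 1-colour Agilent miRNA arrays. DN are CD4-, CD8- thymocytes and DP are CD4+, CD8+ thymocytes, each sorted from thymus (3 arrays per group, described as biological replicates). ES stands for the early and LS for the late stage of T-ALL, both sorted for CD4 and CD8 out of spleens of bone marrow chimeras transformed by N1ICD, the intracellular fragment of Notch1 that signals without ligand (3 arrays per group), and M295 is a cultured mouse T-ALL line from the same strain (1 array). Because leukaemias were taken from spleen and normal cells from thymus, organ and disease cannot be told apart wherever the 2 are compared. In such bulk samples a change in the share of cells that hold a miRNA and a change in its amount per cell cannot be told apart either.

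A miRNA is a short RNA that guides an Argonaute protein to messenger RNAs, mainly through its seed, bases 2 to 8 from the 5′ end, and lowers the output of the messages it pairs with. Thymocytes pass from the DN to the DP stage before they become mature T cells, and constant Notch1 signalling in this window gives rise to T-ALL. The best known miRNAs of this leukaemia, such as those of the miR-17 to miR-92 cluster, are not among the 5. Of these, miR-3473b and miR-690 have been studied in mouse macrophages, and for the other members no role is stated here.

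The mature sequences are shown because the seeds decide which messages a miRNA can pair with and because 2 of the 5 share most of their length. They come from RefSeq on the GRCm38.p6 assembly, all 5 array names were matched there, and miR-3473 carries the name miR-3473a in that table. The seed is in capitals.
miR-3473: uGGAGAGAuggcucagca
miR-3473b: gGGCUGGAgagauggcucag
miR-344i: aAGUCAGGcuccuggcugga
miR-690: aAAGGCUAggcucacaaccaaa
miR-3968: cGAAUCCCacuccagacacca

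The 5 seeds are all different. Among the other mature miRNAs of the table, miR-882 has the seed of miR-3473 and miR-3473e that of miR-3473b, while 0 others have the seed of miR-344i, miR-690 or miR-3968. miR-882 was on the array and was above background on none of the 13 arrays. The 5 genes lie on 5 chromosomes. The mature miR-3473 maps to chrX:162874920-162874937 on the minus strand, within the span of the protein-coding gene Syap1. miR-3473b maps to chr10:41670774-41670793 on the plus strand, within the span of Ccdc162. miR-344i maps to chr7:62085281-62085300 on the minus strand, where the table has no other gene. miR-690 maps to chr16:28599940-28599961 on the minus strand, within the span of Fgf12. miR-3968 maps to chr11:115447969-115447989 on the minus strand, within the span of Trim80. Whether each hairpin lies in an exon or an intron of the gene around it was not examined here.

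miR-3473 and miR-3473b share a run of 16 bases, in capitals below, which covers positions 1 to 16 of the first and 5 to 20 of the second. Because the run starts at different positions, the seeds differ.
miR-3473: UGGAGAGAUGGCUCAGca
miR-3473b: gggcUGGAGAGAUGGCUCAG

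The same 16 bases stand in the hairpin precursor of miR-690, at positions 62 to 77, just before the mature miR-690 at positions 83 to 104 (chr16:28599935-28600043, minus strand), so the mature miR-690 does not hold them.
miR-690 hairpin: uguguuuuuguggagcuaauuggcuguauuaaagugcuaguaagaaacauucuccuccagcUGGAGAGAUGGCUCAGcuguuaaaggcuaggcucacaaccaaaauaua

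Of the 1005 mouse hairpins in the table, 7 (0.697%) hold this run on either strand, and 5 of them hold it in the direction of the miRNA (Mir3473a, Mir3473b, Mir3473f, Mir6413 and Mir690). Among 1679 mature names 2 hold it (0.119%), the 2 members themselves. As background, B2 repeats, short interspersed elements of rodent genomes that RNA polymerase III transcribes, carry letters of this kind near their start. Repeat annotation was not used here, and which RNA gave the array signal was not tested. The other pairs of members share runs of 3 to 7 bases.

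miR-344i belongs to a family of miRNAs from neighbouring hairpins on chromosome 7. It shares a run of 16 bases with miR-344-5p (chr7:61877819-61877844) and miR-344b-5p (chr7:61790556-61790578), all on the minus strand, and the run is offset by 1 base, so that miR-344i again has a seed of its own.
miR-344i: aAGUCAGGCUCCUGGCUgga
miR-344-5p: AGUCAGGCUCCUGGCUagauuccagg
miR-344b-5p: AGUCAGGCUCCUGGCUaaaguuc

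Of the 17 array names of the miR-344 family, 16 were above background on none of the 13 arrays, and miR-344i was the exception. Of the 4 array names of the miR-3473 family, miR-3473c and miR-3473d were above background on 0 of 13 arrays, while miR-3473 and miR-3473b were above background on all 13.

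The signal used throughout is the log2 of the background-subtracted intensity divided by a scaling value of its array, the 75th percentile over the 108 mouse miRNAs that each of the 12 primary arrays detected well above background. A value of 0 is the level of that percentile, and values under -7.59 were set to this floor. The arrays detected from 115 (ES 1) to 244 (ES 3) mouse miRNAs among the primary samples and 257 in M295. ES 1 also had the noisiest negative controls, with a standard deviation of 19.0 intensity units against at most 7.11 elsewhere, and no spot was saturated. As a check of the labels, 5 miRNAs of blood cells were read. miR-142-3p, miR-142-5p and miR-342-3p were above background on every array, while miR-150-5p was so on 2 of 3 ES and 2 of 3 LS arrays and miR-155-5p on 1 of 3 ES and 1 of 3 LS arrays and not on M295. The 3 thymocyte markers miR-181a-5p, miR-181b-5p and miR-128-3p were above background on every array, and their summed level was 1.72 to 1.84 in DN, 2.99 to 3.03 in DP, 0.68 to 0.97 in ES, 0.81 to 1.54 in LS and -0.98 in M295 (log2).

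miR-3473b was lowest in thymocytes, higher in ES and highest in LS. Its log2 signal was -0.32, -0.60 and -0.55 in DN, -0.49, -0.41 and -0.85 in DP, 0.13, -0.04 and 0.57 in ES, and 1.79, 1.45 and 1.41 in LS. Every ES array lay above every thymocyte array and every LS array above every ES array, while the DN and DP arrays overlapped. The means of DN, DP, ES and LS were -0.49 ± 0.15, -0.58 ± 0.24, 0.22 ± 0.31 and 1.55 ± 0.21 (SD, n = 3 each).

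miR-3473 showed the same order of groups. Its signal was -3.77, -3.87 and -3.92 in DN, -3.79, -3.73 and -4.08 in DP, -3.33, -3.42 and -2.77 in ES, and -1.75, -2.06 and -2.24 in LS. DN and DP again overlapped, ES lay above both and LS above ES, on every array. The means were -3.85 ± 0.08, -3.87 ± 0.19, -3.18 ± 0.35 and -2.02 ± 0.25 in DN, DP, ES and LS (SD, n = 3 each).

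miR-344i was close to background. Its signal was -6.73, -6.82 and -7.45 in DN, -7.12, -7.33 and -7.24 in DP, -6.32, -6.25 and -6.61 in ES, and -5.37, -4.87 and -4.97 in LS. Of the 12 primary arrays it was above background on ES 2 and the 3 LS arrays, and the background-subtracted intensity was 7.75 to 14.5 units on the thymocyte arrays against 45.8 to 67.3 on the LS arrays. The means were -7.00 ± 0.39 (DN), -7.23 ± 0.10 (DP), -6.39 ± 0.19 (ES) and -5.07 ± 0.26 (LS), each with its SD over 3 arrays, with no overlap between ES and LS or between ES and either thymocyte group.

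miR-690 was highest in DP thymocytes. Its signal was -2.06, -2.12 and -2.16 in DN, -0.82, -0.69 and -0.67 in DP, -1.75, -1.99 and -2.40 in ES, and -1.0, -1.41 and -0.85 in LS. The ES arrays overlapped DN, and the LS arrays lay above ES and below DP, the highest LS array by 0.03. The means were -2.11 ± 0.05 (DN), -0.73 ± 0.08 (DP), -2.05 ± 0.33 (ES) and -1.09 ± 0.29 (LS), each with its SD over 3 arrays.

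miR-3968 was the one member that was lower in LS than in ES. Its signal was 2.00, 2.18 and 2.20 in DN, 1.39, 1.43 and 1.55 in DP, 2.01, 1.42 and 1.70 in ES, and 0.79, 0.79 and 0.97 in LS. LS lay below every other primary array, while ES overlapped both DN and DP. The means were 2.13 ± 0.11 (DN), 1.46 ± 0.08 (DP), 1.71 ± 0.30 (ES) and 0.85 ± 0.10 (LS), each with its SD over 3 arrays.

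**Figure D1:**
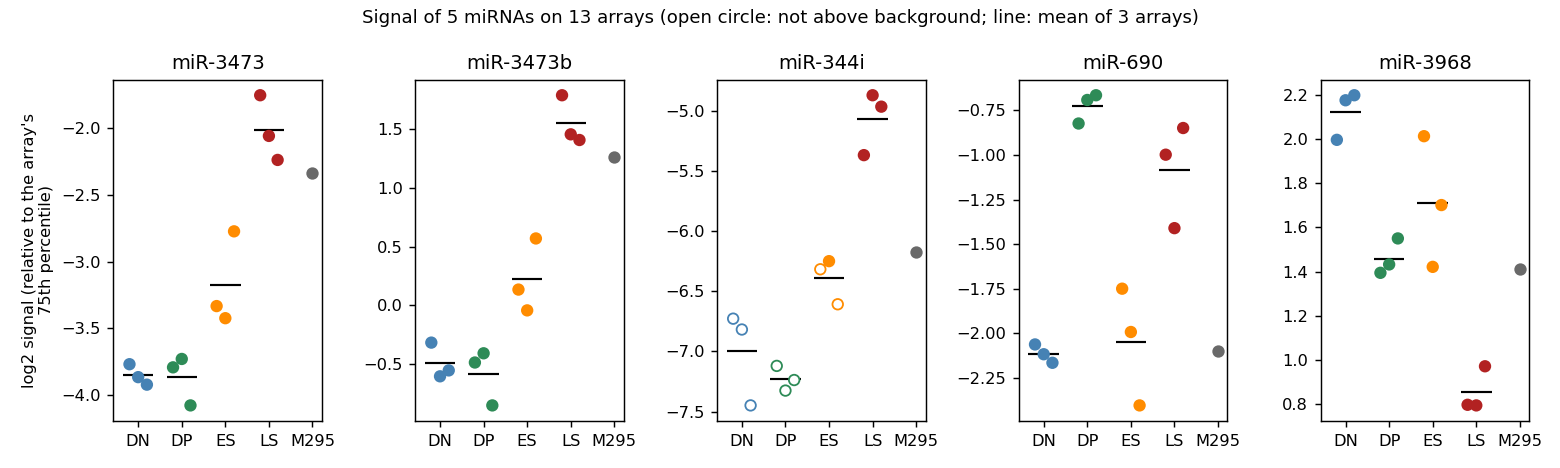
Log2 signal (vertical axis, relative to the scaling value of the array) of each of the 5 miRNAs on the 13 arrays, by group. Points are arrays, open circles are arrays where the miRNA was not above background, and lines are means of 3 arrays; the LS points stand apart from the ES points in every panel, above them for 4 miRNAs and below them for miR-3968.

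The differences between the stages, LS minus ES, are given as a description. On the log2 scale they were 1.33 (SE 0.22, 2.51-fold) for miR-3473b, 1.32 (SE 0.23, 2.50-fold) for miR-344i, 1.16 (SE 0.22, 2.24-fold) for miR-3473, 0.96 (SE 0.21, 1.95-fold) for miR-690 and -0.86 (SE 0.18, 1.82-fold lower in LS) for miR-3968. The median difference was 1.16 over the 5 and 0.28 over all 229 tested miRNAs. The gap between the nearest arrays of the stages was 0.88 for miR-344i, 0.84 for miR-3473b, 0.54 for miR-3473, 0.45 for miR-3968 and 0.34 for miR-690.

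In the order of this gap among all tested miRNAs, the 5 members stood at places 1, 2, 3, 6 and 8. Between them stood miR-494-3p, miR-712-5p and miR-720. miR-712-5p was 1.45 higher in LS (SE 0.32), with means of -5.13 (DN), -6.09 (DP), -5.37 (ES) and -3.92 (LS). Just inside the limit of no overlap were miR-181d-5p with a gap of 0.0057 and miR-378-3p with 0.025. Just outside it were miR-877-3p and miR-1249-3p, whose nearest arrays overlapped by less than 0.01 (gaps of -0.0064 and -0.0098).

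Each member was printed on the array as 2 different probes with up to 20 spots each, of which 13 to 20 were kept. Both probes of every member kept the stages apart, so that 10 of 10 probes had no overlap. The signal that chose a member is the mean of its 2 probes, so no support for the separation is read from this count. The share of such probes over all tested miRNAs was not computed. The LS minus ES difference per probe was 1.19 and 1.16 for miR-3473, 1.35 and 1.31 for miR-3473b, 1.41 and 1.29 for miR-344i, 0.95 and 0.98 for miR-690, and -0.87 and -0.86 for miR-3968. The probes of a member were hybridised to the same RNA on the same array, so their likeness bears on the readout and not on the samples.

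Over the 13 arrays the log2 signals of the 2 probes correlated at r = 0.987 for miR-3473, 1.00 for miR-3473b, 0.975 for miR-344i, 0.998 for miR-690 and 0.995 for miR-3968, given as a description across arrays that fall into groups. Over the 6 thymocyte arrays, where no leukaemia is included, r was 0.995 for miR-3473b, 0.999 for miR-690 and 0.992 for miR-3968. For the dimmer pair it was 0.660 for miR-3473 and 0.843 for miR-344i. The first probe of miR-3473 was above background on 7 of 13 arrays and its second on 13, and the probes of miR-344i were above background on 2 and 5 of 13. The probes of the other 3 members were above background on all 13 arrays. The files hold no probe sequences, so whether a probe for miR-3473 also binds miR-3473b, with which it shares 16 bases, was not tested.

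**Figure D2:**
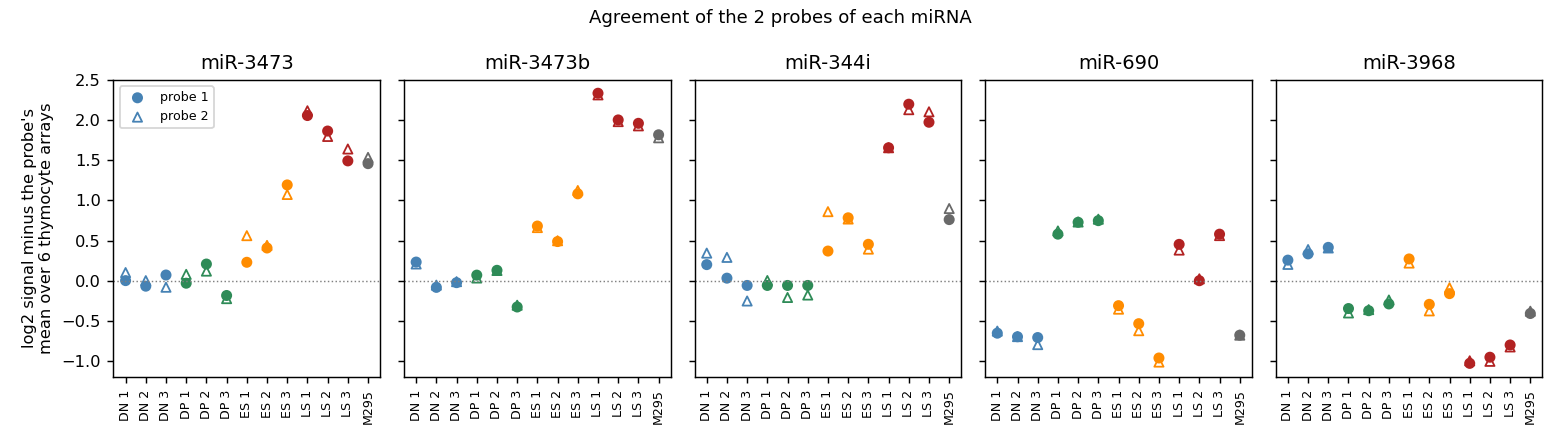
Log2 signal of each probe minus its own mean over the 6 thymocyte arrays (vertical axis) on the 13 arrays (horizontal axis), with 1 panel per miRNA. Filled circles are the first probe and open triangles the second. The 2 probes of a miRNA run together, most closely for miR-3473b (r = 1.00) and least closely for miR-344i (r = 0.975).

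T-ALL as a whole, the mean of ES and LS, was set against thymocytes, the mean of DN and DP, to ask whether the miRNAs that separate the stages also separate leukaemia from normal T-cell precursors. This average gives both stages equal weight, so the size of the stage difference cancels in it. The spread of the ES and LS arrays does not cancel, and a choice of members without overlap favours a small spread. The calls and adjusted p of the members in this comparison are therefore not independent of that choice. limma was fitted to all 229 tested miRNAs on the 12 primary arrays, and a miRNA was called at a Benjamini-Hochberg adjusted p under 0.05. Of the 5 members 3 were called higher, where 31.4% of the tested miRNAs were, and 1 was called lower, where 25.8% were. Their median difference was 1.26, against -0.12 over all tested miRNAs.

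miR-3473b rose 2.68-fold in T-ALL (log2 difference 1.42, 95% interval 1.08 to 1.76, adjusted p = 1.50e-04) and miR-3473 rose 2.40-fold (1.26, 0.92 to 1.61, adjusted p = 1.75e-04). miR-344i rose by an estimated 2.61-fold (log2 difference 1.38, 1.02 to 1.75, adjusted p = 1.56e-04 in limma). This fold is uncertain, since miR-344i was above background on 0 of 6 thymocyte arrays and 4 of 6 T-ALL arrays. It entered the tested set through LS, the group where it was highest and the only one with signal on all 3 arrays, so its tests against thymocytes are not independent of how it was let in. For these 3 every T-ALL array lay above every thymocyte array, a pattern found for 15.3% of the tested miRNAs. The call of miR-344i ended with a different background correction, normexp, which models the background of the raw spot signal (log2 difference 0.32, adjusted p = 0.0811).

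miR-3968 fell 1.42-fold in T-ALL (log2 difference -0.51, 95% interval -0.80 to -0.22, adjusted p = 0.00737), and the 6 arrays on each side overlapped. Its call ended with scaling over all mouse miRNAs (-0.49, adjusted p = 0.154). miR-690 was at -1.57 ± 0.60 in T-ALL and -1.42 ± 0.76 in thymocytes (SD, n = 6 each). The difference was -0.15 with an interval of -0.48 to 0.19 (adjusted p = 0.429 in limma), and the thymocyte mean joins DN and DP arrays that lie far apart.

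The comparison of DN with DP asks how the members differ between normal stages, and it uses no leukaemia array other than for the shared estimate of spread. miR-690 was 2.62-fold lower in DN than in DP (log2 difference -1.39, 95% interval -1.86 to -0.92, adjusted p = 8.80e-04), and the DN and DP arrays stood 1.24 apart. miR-3968 was 1.59-fold higher in DN (0.67, 0.26 to 1.08, adjusted p = 0.0204). The other 3 members were not called. Their differences were 0.01 for miR-3473 (interval -0.47 to 0.50, adjusted p = 0.966 in limma), 0.09 for miR-3473b (-0.39 to 0.57, 0.786) and 0.23 for miR-344i (-0.29 to 0.74, 0.493). Of all tested miRNAs 10.5% were higher and 18.8% lower in DN. The groups did not overlap for 2 of the 5 members and for 76.0% of all tested miRNAs.

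The DN-to-DP call of miR-3968 rested on few arrays. It ended without DN 2 (adjusted p = 0.0779 in limma), DN 3 (0.0730), DP 1 (0.0573) or DP 2 (0.0674), and in the authors' value table (0.0563), with log2 differences of 0.52 to 0.65. Scaling over all mouse miRNAs ended the calls of miR-690 (log2 difference -1.09) and miR-3968 (0.96), both at adjusted p = 0.0818.

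DP thymocytes, which share the surface type of the leukaemia, were compared with each stage. The 2 comparisons use the same 3 DP arrays, and the ES and LS arrays are those that chose the members, so the values stand side by side with no test of their difference. In ES 3 members were called higher, where 21.0% of tested miRNAs were, and 1 lower, where 25.3% were. In LS 3 were called higher (32.3% of tested miRNAs) and 1 lower (26.2%). Nothing is read from these counts, since the same arrays chose the members.

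miR-3473b was 1.74-fold above DP in ES (log2 difference 0.80, adjusted p = 0.0132) and 4.37-fold in LS (2.13, adjusted p = 6.05e-05). miR-3473 was 1.61-fold above DP in ES (0.69, adjusted p = 0.0276) and 3.61-fold in LS (1.85, adjusted p = 9.69e-05). miR-344i was 0.84 above DP in ES on the log2 scale (adjusted p = 0.0144), where 1 of 3 ES arrays and 0 of 3 DP arrays were above background, so no fold is given. In LS it was an estimated 4.47-fold above DP (2.16, adjusted p = 6.48e-05 in limma), with 3 of 3 LS arrays above background. The size of this LS difference depended on the background correction and the scaling, with 0.62 under normexp and 1.06 in the authors' value table.

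The ES calls of these 3 ended under some settings. That of miR-3473 ended without DP 1 (adjusted p = 0.0506 in limma) or DP 3 (0.0925), in the authors' value table (0.0669) with quantile normalization (0.0726), with no filter on dim miRNAs (0.0824), with the replicate number as a block (0.0532) and within slide 1 (0.230). That of miR-3473b ended without DP 3 (0.0562) and within slide 1 (0.209). That of miR-344i ended under normexp (log2 difference 0.37, adjusted p = 0.158), with no filter on dim miRNAs (0.0557), within slide 1 (0.157) and within slide 2 (0.10). The LS calls of all 3 against DP were made in every alternative run in which they were tested, with adjusted p in limma of at most 0.046. That highest value was for miR-344i within slide 1. The LS arrays are among those that chose the members and let miR-344i in, so nothing is read from how often these calls were made.

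miR-690 was 2.50-fold below DP in ES (log2 difference -1.32, adjusted p = 8.28e-04). In LS it was not called (-0.36, 95% interval -0.83 to 0.11, adjusted p = 0.164 in limma), although its 3 LS arrays lay below the 3 DP arrays, a separation in the lower direction that 36.7% of tested miRNAs showed. The ES call ended with scaling over all mouse miRNAs (-0.78, adjusted p = 0.148). miR-3968 was not called in ES (0.25, interval -0.16 to 0.66, adjusted p = 0.267 in limma) and was 1.52-fold below DP in LS (-0.61, adjusted p = 0.0177). This LS call ended without DP 3 (adjusted p = 0.0540) or LS 1 (0.0551) and with scaling over all mouse miRNAs (0.0877).

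Against DN, 0 of the 5 members were called in ES by limma, where 6.55% of tested miRNAs were called. An unadjusted p under 0.05 was found for 4 of the 5 members, and the share of all tested miRNAs at that level was not computed. The ES arrays are among those that chose the members, so nothing is read from these counts. The ES minus DN differences were 0.71 for miR-3473b (adjusted p = 0.0935), 0.68 for miR-3473 (0.110), 0.61 for miR-344i (0.157), 0.07 for miR-690 (0.895) and -0.41 for miR-3968 (0.178). Without ES 2 the calls of miR-3473 (0.80, adjusted p = 0.0476 in limma) and miR-3473b (0.84, 0.0449) were made. They were also made with scaling over all mouse miRNAs (0.91, 0.0361 and 0.95, 0.0365) and within slide 2 (1.12, 0.00869 and 1.15, 0.0120), and that of miR-3968 within slide 2 (-0.49, 0.0483).

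The LS arrays are among those that chose the members, so the LS values against DN are given as values and nothing is read from their count. All 5 passed the threshold, 4 higher (25.8% of tested miRNAs) and 1 lower (7.42%). miR-3473b was 4.11-fold higher (log2 difference 2.04, adjusted p = 3.11e-04 in limma), miR-3473 3.57-fold (1.84, 3.96e-04), miR-344i an estimated 3.81-fold (1.93, 3.96e-04) and miR-690 2.04-fold (1.03, adjusted p = 0.00839). miR-3968 was 2.42-fold lower (-1.27, adjusted p = 0.00118). The call of miR-344i ended under normexp (0.28, adjusted p = 0.357), and that of miR-690 in the authors' value table (0.73, 0.146), with quantile normalization (0.71, 0.171) and with scaling over all mouse miRNAs (0.53, 0.355).

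**Figure D3:**
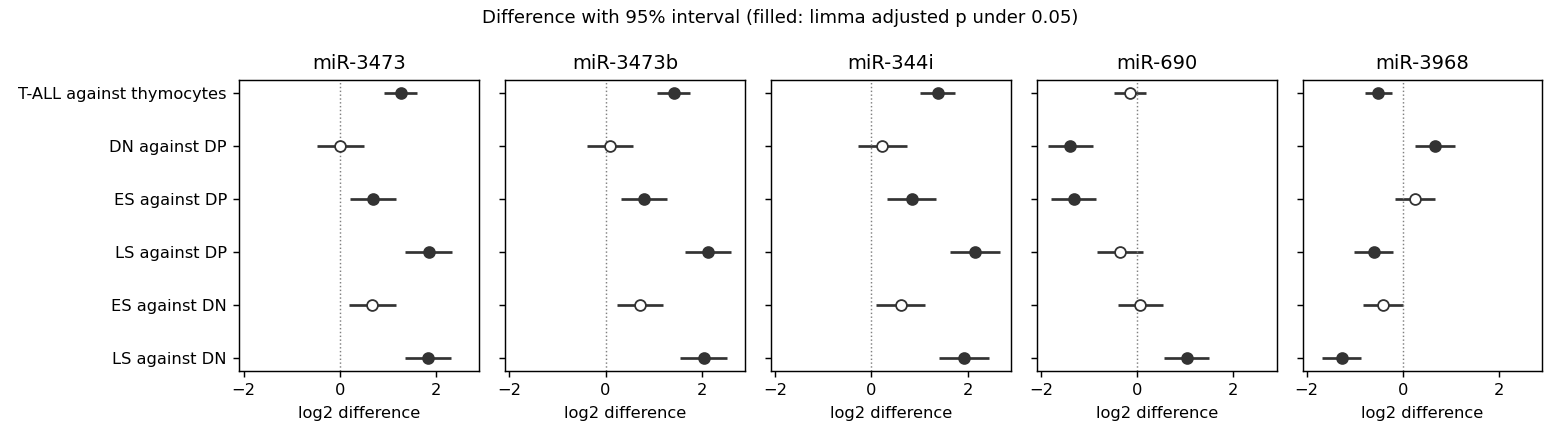
Log2 differences (horizontal axis) with 95% intervals for each comparison (rows), with 1 panel per miRNA. Filled points passed an adjusted p of 0.05 in limma, and the stage difference is not plotted; miR-3473, miR-3473b and miR-344i lie above 0 in T-ALL against thymocytes, miR-690 has its largest differences against DP in DN and ES, and miR-3968 lies below 0 in LS against either thymocyte group.

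Arrays were printed on slides, and slide 1 held DN 1, DP 1, ES 1, ES 2, LS 1, LS 2 and M295, while slide 2 held the other 6. Within slide 1, LS minus ES was 1.47 for miR-3473, 1.57 for miR-3473b, 1.16 for miR-344i, 0.67 for miR-690 and -0.92 for miR-3968. Within slide 2, where each stage has 1 array, it was 0.54, 0.84, 1.64, 1.55 and -0.73 in the same order. With slide as a block the 5 differences were 1.16, 1.33, 1.32, 0.96 and -0.86. These equal the values without the block because ES and LS are spread alike over the slides. The direction within a slide is fixed by the choice of members without overlap, so only the size is read. It differed by slide, most for miR-3473 and miR-690.

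T-ALL minus thymocytes was 1.14 within slide 1 and 1.39 within slide 2 for miR-3473 (adjusted p = 0.0394 and 0.00195 in limma), and 1.23 and 1.59 for miR-3473b (0.0440 and 0.00195). For miR-344i it was 1.22 and 1.42 (0.0622 and 0.00469), for miR-690 -0.09 and -0.22 (0.727 and 0.133) and for miR-3968 -0.44 and -0.50 (0.228 and 0.0139). DN minus DP of miR-690 was -1.24 within slide 1 (adjusted p = 0.168) and -1.46 within slide 2 (0.00119), and that of miR-3968 was 0.60 (0.479) and 0.70 (0.0114). In T-ALL against thymocytes 30 miRNAs were called within slide 1 and 150 within slide 2, against 131 in all, and the cause of this difference was not tested. Within slide 1 the calls of all 5 members in LS against DN ended, with adjusted p of 0.103 to 0.153 in limma, as did those of miR-690 in ES against DP (0.116) and miR-3968 in LS against DP (0.237). With slide as a block every call of a member named above was made again.

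The stage difference depended on how arrays were scaled. When the 75th percentile was instead taken over all mouse miRNAs, most of which were not above background, the median LS minus ES difference of the tested miRNAs moved from 0.28 to -0.38. The members moved with it, to 0.59 for miR-3473b, 0.58 for miR-344i, 0.42 for miR-3473, 0.22 for miR-690 and -1.60 for miR-3968, and 1 of the 5, miR-3968, still had no overlap between the stages. Relative to the median of all tested miRNAs the difference was 1.04 in the main scaling and 0.97 in this one for miR-3473b, 1.04 and 0.96 for miR-344i, 0.88 and 0.80 for miR-3473, 0.68 and 0.60 for miR-690, and -1.15 and -1.22 for miR-3968. The scalings differ by a constant per array, which taking the median off removes, apart from values at the floor. The likeness of these values was thus fixed in advance, and no support for the stage difference is read from it.

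In the authors' value table, which is quantile normalized, the differences were 1.35 for miR-3473b, 0.92 for miR-3473, 0.75 for miR-690, 0.48 for miR-344i and -0.95 for miR-3968, and miR-344i and miR-690 overlapped between the stages. Quantile normalization of the scanner values gave 1.39, 1.01, 0.76, 0.80 and -0.88, with overlap for the same 2. Under normexp they were 1.30, 0.82, 0.83, 0.25 and -0.83, with overlap for miR-344i. Leaving out any 1 of the 6 T-ALL arrays cannot bring an overlap, so only the sizes of the differences are given. They were 1.2 to 1.5 for miR-3473b, 1.22 to 1.47 for miR-344i, 1.03 to 1.36 for miR-3473, 0.78 to 1.12 for miR-690 and -1.01 to -0.71 for miR-3968. Every member kept the sign of its stage difference in the authors' value table, under normexp, with quantile normalization and with scaling over all mouse miRNAs.

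**Figure D4:**
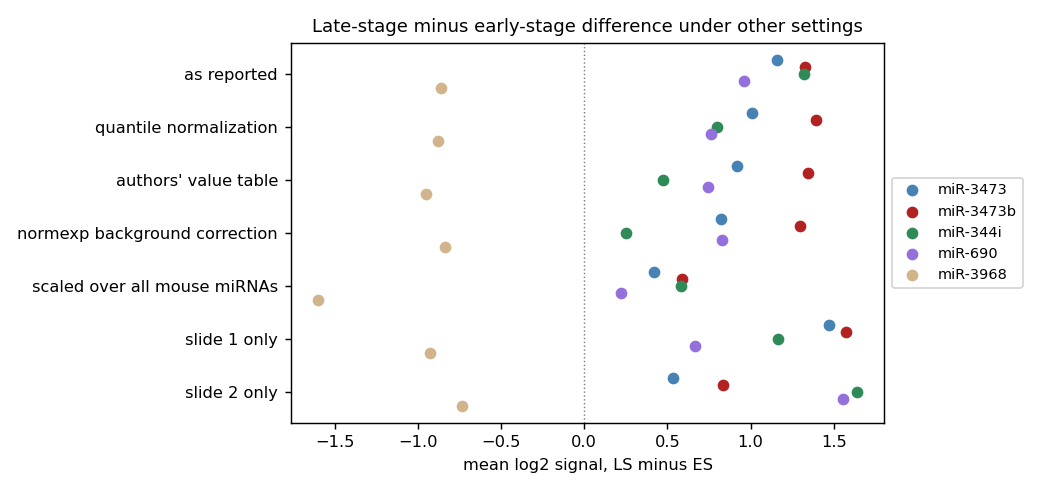
Mean log2 signal in LS minus that in ES (horizontal axis) for the 5 miRNAs under the settings named at the rows, as reported in the top row. Points are group differences without error bars. No member changes side of 0, which the choice of members fixes for the rows of single slides. Scaling over all mouse miRNAs moves all 5 to the left, miR-3473b from 1.33 to 0.59 and miR-3968 from -0.86 to -1.60.

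M295, the cultured line, has 1 array and no spread, so its values are set beside the ranges of the groups without a test. miR-3473 was at -2.33, miR-3473b at 1.26 and miR-344i at -6.17, each above all DN, DP and ES arrays and below all LS arrays. miR-690 was at -2.10, within the DN and ES ranges and below every DP and LS array. miR-3968 was at 1.41, within the DP range, above every LS array and below every DN and ES array. The line thus lay between the ES and LS arrays for 4 members, for miR-3968 close to the lowest ES array (1.41 against 1.42), and outside the LS range for all 5. A place between the stages is possible only where the stages do not overlap, which is how the members were chosen. The shares over all tested miRNAs were not computed, so nothing is read from these counts.

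Across the 12 primary arrays miR-3473 and miR-3473b followed each other more closely than any other pair of members (r = 0.997), and over the 6 thymocyte arrays, where neither was called between DN and DP, r was 0.935. miR-344i correlated with them at 0.925 (miR-3473b) and 0.911 (miR-3473) over 12 arrays and at 0.310 and 0.292 over the 6 thymocyte arrays. miR-690 and miR-3968 correlated at -0.63 over 12 arrays and at -0.97 over the 6 thymocyte arrays, which fall into 2 groups that differ for both. These are descriptions over arrays that fall into groups and share their scaling value.

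The tested miRNAs most like miR-3473, apart from miR-3473b, were miR-3472 (r = 0.952 over 12 arrays) and miR-5119 (0.951), and those most like miR-3473b were miR-3472 (0.946) and miR-5109 (0.946). miR-714 came next after the 2 other members for miR-344i (0.886). miR-690 was most like miR-1839-3p (0.804), miR-207 (0.800) and miR-669o-5p (0.787), of which miR-669o-5p stood at the floor in DN and at -4.64 in DP. miR-3968 was most like miR-3963 (0.946), miR-5097 (0.944) and miR-720 (0.914), a name known to stand for a fragment of a transfer RNA. miR-3968 was at 2.13, 1.46, 1.71 and 0.85 in DN, DP, ES and LS and miR-720 at 3.08, 2.83, 2.79 and 2.24, with LS the lowest group for both.

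Markers of other cell types were read beside the stage difference. The summed erythroid markers, miRNAs of red blood cell precursors (miR-451, miR-144-3p and miR-144-5p, 3 of 4 listed being on the array) ranged from -5.25 to -1.35 in ES and from -3.39 to 0.69 in LS, from -0.40 to 0.03 in DN and from -5.52 to -4.94 in DP (log2). The 3 myeloid markers summed to -5.82 to 2.86 in ES, where miR-223-3p was above background on ES 3 alone, and to -5.64 to -5.57 in LS, where 0 of 3 were above background. The 7 endothelial and stromal markers were above background on 0 ES and 0 LS arrays. In thymocytes, miR-223-3p and miR-126-3p were each above background on 3 DN arrays and 0 DP arrays. No other myeloid, endothelial or stromal marker was above background in DN or DP. The part of such cells in the comparisons with DN was not tested. The 7 epithelial markers summed to -4.70 to -4.17 in ES and -4.37 to -4.0 in LS, with at most 2 above background on an array. The erythroid ranges of ES and LS overlap, and the part of these cells in the members' stage difference was not tested. Leaving out ES 3, the array with the high myeloid marker, cannot change the direction of LS minus ES, given how the members were chosen. The part of myeloid cells in that difference was not tested either.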

How the data were processed

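MiRNA levels were measured on 13 1-colour arrays (miRBase 18 names). Agilent Feature Extraction 10.7.3.1 made the scanner files, per the file headers, and these deposited files give the background-subtracted intensity of each spot, its raw signals and a mark for spots well above background. The authors' deposited value table is on the log2 scale with equal column distributions. Per the submitters' processing notes, the tools were GCOS, MAS5, RMA and affy, whose roles are not given.

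Control and outlier spots (4.03 to 8.60% of spots per array) were removed, and intensities were averaged per probe and then per miRNA, scaled to the array's 75th percentile over 108 miRNAs, set to at least the floor and put on the log2 scale. To count as above background, a miRNA needed the mark on 50% or more of the spots kept for 1 of its probes. The 229 tested miRNAs met this on every array of 1 group or more. limma 3.58.1 (R 4.3.3) was fitted to the 12 primary arrays with 1 mean per group, eBayes and Benjamini-Hochberg adjustment within a comparison, and was tested on simulated data. Intervals are 95% intervals of that fit. M295 was left out of the fit. For a fold against a group never above background, each dim array was set no lower than the weakest signal above background there. This changed no fold of miR-344i, so its folds are estimates and not bounds.

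The number of arrays limits the precision. Named besides the members are the 3 tested miRNAs most correlated with each, 2 families by name, miR-712-5p and the miRNAs nearest the limit of no overlap; miR-494-3p and miR-720 were named after their values were seen. The members, lists and rules were chosen with earlier results of these data known. Replicate numbers were not used to pair the arrays. Correlations of deviations ran from -0.34 to 0.50 over 18 pairs with the same number (6 over 0.1). Over 36 pairs with different numbers they ran from -0.56 to 0.58 (7 over 0.1). DN 1, DN 2 and DN 3 correlated with the DP array of the same number at -0.01, 0.46 and 0.23. DN 2 with DP 3 was at -0.32 and DN 3 with DP 2 at -0.33. Whether arrays with the same number share an animal was not tested. Alternatives were normexp (offset 50), the authors' table, other scalings, filters, probe summaries and an intensity trend, slide, and leaving out each array.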

Additional observations from a re-analysis of the deposited data

How the results depend on the processing

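Of 868 alternative values for the members, 796 kept their direction and their side of the threshold or moved by less than the spread, 41 lost the threshold, 7 passed it, 14 moved and 10 changed sign. Many of the 868 could not differ, such as LS minus ES with a thymocyte array left out, so the 796 is no measure of stability. The changes of sign were all in differences that were not called. miR-3473 in DN against DP was at -0.0018 with quantile normalization and at -0.091 to 0.083 without single arrays, below 0 without DN 1 or DP 3. miR-3473b in DN against DP was at -0.037 in the authors' table, -0.021 with quantile normalization and -0.044 to 0.177 without single arrays, below 0 without DP 3. miR-690 in ES against DN was at -0.016 in the authors' table, -0.058 with quantile normalization, -0.263 within slide 2 and -0.083 to 0.244 without single arrays, below 0 without ES 1.

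The number of members with no overlap between the stages was 5, and was 4 under normexp, 3 in the authors' table, 3 with quantile normalization and 1 with scaling over all mouse miRNAs. It was also 4 when miRNAs had to be above background on all 12 arrays, since miR-344i was then not tested. The share of all tested miRNAs without overlap was not computed under these settings. Leaving out single arrays left it at 5, which the choice of members fixes.

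Counts of called miRNAs, which set the background, moved by over 1.5 times as follows. Requiring signal on all 12 arrays leaves fewer miRNAs to test, and gave 60 in T-ALL against thymocytes (131 in the report), 33 in DN against DP (67), 60 in ES against DP (106), 68 in LS against DP (134), 7 in ES against DN (15) and 35 in LS against DN (76). Slide 1 alone gave 30, 18, 29, 56, 3 and 3 in the same order, and slide 2 alone, with as many primary arrays, gave 150, 123, 165, 148, 137 and 118. Normexp gave 42 in DN against DP, 0 in ES against DN and 46 in LS against DN. With no filter on dim miRNAs, which adds miRNAs at the floor, 1 was called in ES against DN and 21 in LS against DN. In ES against DN the count was also 42 with scaling over all mouse miRNAs, 23 with quantile normalization, 9 with the median over probes and 9 with slide as a block. Leaving out single arrays gave 110 to 154, 44 to 101, 69 to 120, 99 to 164, 0 to 40 and 32 to 117, again in the order above. The causes of the other shifts were not tested.

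Scaling over all mouse miRNAs moved the split of higher and lower calls from 24 and 43 to 29 and 29 in DN against DP, from 48 and 58 to 83 and 34 in ES against DP, from 9 and 6 to 40 and 2 in ES against DN and from 59 and 17 to 43 and 34 in LS against DN. The authors' table gave 61 and 75 in LS against DP (74 and 60 in the report) and 46 and 30 in LS against DN, and quantile normalization gave 63 and 81, 46 and 35, and 17 and 6 in ES against DN.

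With the replicate block, which pairs arrays by number alone, 125, 61, 84, 135, 6 and 66 miRNAs were called in the same 6 comparisons, and the call of miR-3473 in ES against DP ended (adjusted p = 0.0532 in limma). No other call of a member changed under it. Low signal limits miR-344i most, since it was above background on 4 of 12 primary arrays and its calls against thymocytes depend on the background correction.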
